A study of Homo sapiens with 4 samples.

Results

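The class I antigen processing genes examined here are 10 genes, namely B2M, TAP1, TAP2, TAPBP, PSMB8, PSMB9, PSMB10, ERAP1, ERAP2 and NLRC5. Their products make peptides, load them and carry them on major histocompatibility complex class I molecules, except for NLRC5, which activates such genes. Their members were the probe sets that the array annotation assigns to one of these genes and to no other, a rule that uses no measured signal. This gave 25 of the 54675 probe sets on the array and 10 of the 19775 genes with such a probe set. Transcripts were measured on 4 Affymetrix U133 Plus 2.0 arrays from 2 human breast cancer lines. MDA-MB-231 is a triple negative line and T-47D an estrogen receptor-positive one, and cells of each were kept for 24 h with 100 μM JPH203, an inhibitor of the amino acid transporter LAT1, or with the vehicle Captisol. Each of the 4 conditions was measured on 1 array, so the differences below have no replicate check, no error and no test. The comparisons ask how the lines differ without the inhibitor and how each line's transcripts stand after it.

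Nearly every nucleated cell cuts its own proteins with the proteasome and shows the fragments to cytotoxic T cells. The TAP transporter moves the peptides into the endoplasmic reticulum, where aminopeptidases trim them and a loading complex fits them to a class I heavy chain paired with beta-2-microglobulin. Interferon-gamma raises most of these genes together, partly through IRF1 at interferon-stimulated response elements and partly through the transactivator NLRC5, and tumour cells often show low levels of them.

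The proximal promoters show what the members share outside the expression data. RefSeq sequence of GRCh38.p14, from 250 bases before to 50 after each annotated start, covered 9 of the 10 members in 13 windows. Both strands were searched for GAAANNGAA, the core letters of an interferon-stimulated response element, and 8 of the 9 genes held them in a window, against 9.86% of all 27305 genes with such sequence. The matching stretches are printed because they are the one motif of those searched that nearly all members hold, read along the gene's own strand, with the match in capitals. Where the match lies on the opposite strand, its reverse complement stands in capitals.
B2M, chr15:44711366-44711394, plus strand: actctaaGAAAAGGAAACTGAAaacggga
TAP1, chr6:32853816-32853844, minus strand: ggccgctTTCGATTTCGCTTTCccctaaa
TAP2, chr6:32838779-32838807, minus strand: ctggggaagcGAAAGCGAAagctgcccga
TAPBP, chr6:33314077-33314105, minus strand: tttggagGAAAGTGAAAGTGAAaggagga
PSMB8, chr6:32844032-32844060, minus strand: atctgtggctTTCGCTTTCacttcctcct
PSMB10, chr16:67936853-67936881, minus strand: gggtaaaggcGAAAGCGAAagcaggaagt
ERAP1, chr5:96807924-96807952, minus strand: gggctccactTTCACTTTCggtcctgggg
ERAP2, chr5:96876460-96876488, plus strand: tcttagaacaGAAAGTGAAagcaaaagta

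B2M, TAP1 and TAPBP each held 2 matches overlapping by 3 bases, and the other 5 genes held 1. Counted from the annotated start, the pair in B2M ran from -144 to -130 and that in TAP1 from -133 to -119, and that in TAP2 from -58 to -50, whereas those of TAPBP, PSMB8, PSMB10, ERAP1 and ERAP2 lay close to the start. PSMB9 had no match in its window. Its start lies 488 bases from that of TAP1, and these genes are read away from each other, so the TAP1 match lies between both starts but outside the PSMB9 window. Among other motifs, TTCNNNGAA, the letters of a gamma-activated site, was found in 2 of 9 members (TAP1 and PSMB8) and 9.38% of all genes. CCAAT was found in 4 members and 39.7% of genes, and GGGCGG, a GC box, in 5 members and 48.3%. These matches are descriptions of letters, not of binding.

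The arrays were checked before the members were read. All 10 luminal epithelial markers had a higher signal in T-47D control cells. Of 8 mesenchymal markers, 7 were measured, and all of these were higher in MDA-MB-231 control cells. Leukocytes express the class I genes strongly, so 6 of their markers were also read and 5 had a probe set. PTPRC, the pan-leukocyte antigen CD45, had signals of 10.2 and 7.1 in the MDA-MB-231 and T-47D controls. The only leukocyte marker at or above 100 was LAPTM5, with 649.6 and 773.6 in control and JPH203-treated MDA-MB-231 cells, compared with 19.3 and 33.3 for T-47D. The summed signal of the 5 was 679.9 and 812.1 for MDA-MB-231 and 69.2 and 77.6 for T-47D. Signals were on a linear scale with each array's trimmed mean at about 100, and between 10831 and 11857 probe sets per array reached 100, the minimum used here. The array of JPH203-treated T-47D cells differed from its control in other ways. Its ACTB signal at the 3' end was 1.72 times that at the 5' end, against 1.39 in the control, whereas the GAPDH ratio was 0.867 against 0.940, and its spike-in transcripts were 1.56 times as bright. Spike-in brightness also differed between the controls, with a geometric mean signal of 244.8 for MDA-MB-231 and 796.2 for T-47D, a ratio of 0.307, and its part in the ratios between lines was not tested.

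Of the 25 probe sets, 9 reached this minimum on all 4 arrays, 1 on some arrays and 15 on none. The level of a gene was taken from its brightest probe set. By this measure 7 members were measured on every array, TAP2 only in MDA-MB-231 cells, and ERAP2 and NLRC5 on no array. The plot of member signals by array shows these values.

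**Figure D1:**
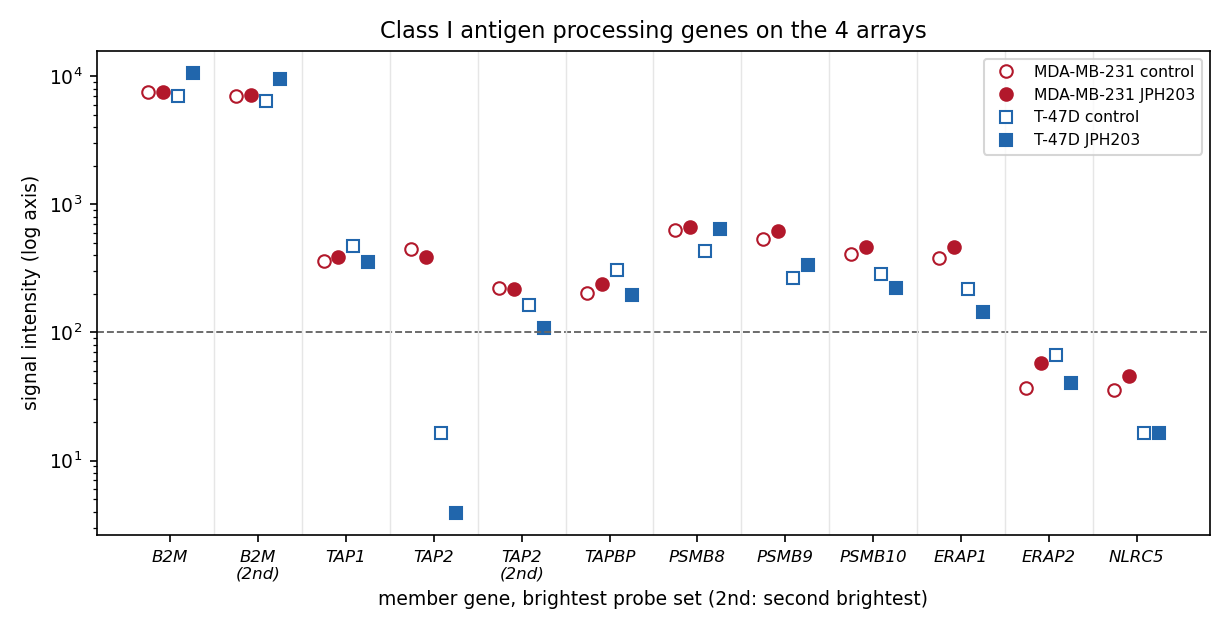
Signal intensity of the class I antigen processing genes on the 4 arrays, on a log axis, with 1 point per array (circles MDA-MB-231, squares T-47D, open control, filled JPH203) and a dashed line at the minimum of 100. The T-47D JPH203 square of B2M stands above the other 3 points, both T-47D squares of TAP2's brightest probe set lie below the line, and all points of ERAP2 and NLRC5 do.

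B2M encodes beta-2-microglobulin, the light chain that every class I molecule carries. Its brightest probe set had signals of 7546 in control and 7552 in JPH203-treated MDA-MB-231 cells, and of 7035 in control and 10637 in JPH203-treated T-47D cells. The controls of the lines were alike, with a ratio of 1.07 for MDA-MB-231 over T-47D. The ratio of JPH203 over control was 1.00 in the MDA-MB-231 line and 1.51 in T-47D. A second B2M probe set gave ratios of 1.08, 1.03 and 1.47 in the same order, and the last of its probe sets stayed at or below 25.2 on every array.

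The transporter subunits TAP1 and TAP2 form the channel for peptides. TAP1 had signals of 358.1 and 387.4 in control and treated MDA-MB-231 cells, then 470.6 and 355.2 in T-47D cells. The T-47D control was the highest of these, and the other 3 arrays lay close together. The brightest TAP2 probe set had signals of 450.9 and 390.7 in MDA-MB-231 cells but 16.4 and 3.9 in T-47D cells. Its MDA-MB-231 control was at least 4.51-fold higher, when the T-47D control is set at the minimum of 100. The second TAP2 probe set had signals of 223.8 and 219.9 for the MDA-MB-231 line and of 162.8 and 107.9 for T-47D. It gave a control ratio of 1.37, so both probe sets placed TAP2 higher in MDA-MB-231 cells but with a very different size. Which transcripts each probe set detects was not tested. The other 2 TAP2 probe sets stayed at or below 27.5 on every array.

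TAPBP encodes tapasin, which bridges the transporter and the heavy chain in the loading complex. Its signals were 204.2 and 237.7 in control and treated MDA-MB-231 cells, then 304.8 and 197.2 in T-47D cells, so the order of the lines differed between control and JPH203. Its other 2 probe sets stayed at or below 78.8.

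PSMB8, PSMB9 and PSMB10 are the catalytic subunits that replace the standard ones in the immunoproteasome, the form that favours class I peptides. PSMB8 had signals of 629.8 and 659.7 for the MDA-MB-231 line and of 433.8 and 647.2 for T-47D. PSMB9 had signals of 536.1 and 621.8 for the MDA-MB-231 line against 267.1 and 334.1 for T-47D. PSMB10 had signals of 406.6 and 462.2 for the MDA-MB-231 line against 284.1 and 222.8 for T-47D. For PSMB9 and PSMB10 both MDA-MB-231 arrays were above both T-47D arrays, whereas for PSMB8 the lines overlapped because the treated T-47D cells reached the level of MDA-MB-231 cells.

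ERAP1 and ERAP2 are the aminopeptidases that trim peptides in the endoplasmic reticulum. On its brightest probe set ERAP1 had signals of 379.4 and 460.7 for the MDA-MB-231 line and of 217.8 and 145.2 for T-47D, and its other 4 probe sets stayed between 0.6 and 62.7. The 5 ERAP2 probe sets lay between 4.4 and 66.9. NLRC5 had signals of 35.3 and 45.3 for MDA-MB-231 and 16.4 on both T-47D arrays. For ERAP2 and NLRC5 no ratio is given, since no array reached the minimum.

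Between the control arrays, 2 of the 8 measured members, TAP2 and PSMB9, were higher in the MDA-MB-231 array by 2-fold or more, the latter with a ratio of 2.01. Over all 8294 genes measured on at least 1 control array, 23.5% passed 2-fold towards MDA-MB-231 and 24.3% towards T-47D, so the members' share lay near the background. TAP2 was counted through its MDA-MB-231 signal alone, and with both controls at or above 100 the count was 1 of 7 members, against 929 of 5688 genes. Both calls depended on the processing. PSMB9, just past 2-fold, had a log2 ratio of 0.96 with median centring, 0.93 with quantile normalization and 0.85 relative to genes of like signal, and the TAP2 probe set measured on all arrays gave 0.46. No member was 2-fold higher in T-47D cells. The control ratio was above 1 for 6 members, including 1.74 for ERAP1, 1.45 for PSMB8 and 1.43 for PSMB10, and below 1 for TAP1 (0.761) and TAPBP (0.670). The median log2 ratio was 0.53 for the 8 members, also with TAP2 at its bound, and 0.0011 for all genes. Among genes of like signal, defined as those within 0.5 log2 units of a member's mean, 95% had control ratios between 0.203 and 5.70 in the case of PSMB9, and each of the 7 members measured in both controls lay inside its own such range. With JPH203 taken in, both MDA-MB-231 arrays were above both T-47D arrays for 3 of the 7 members at or above 100 on every array (PSMB9, PSMB10 and ERAP1), against 38.7% of 5265 genes, and the reverse held for no member, against 41.1%. Whether a difference came from all cells of a culture or from some of them cannot be told apart in these bulk samples.

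**Figure D2:**
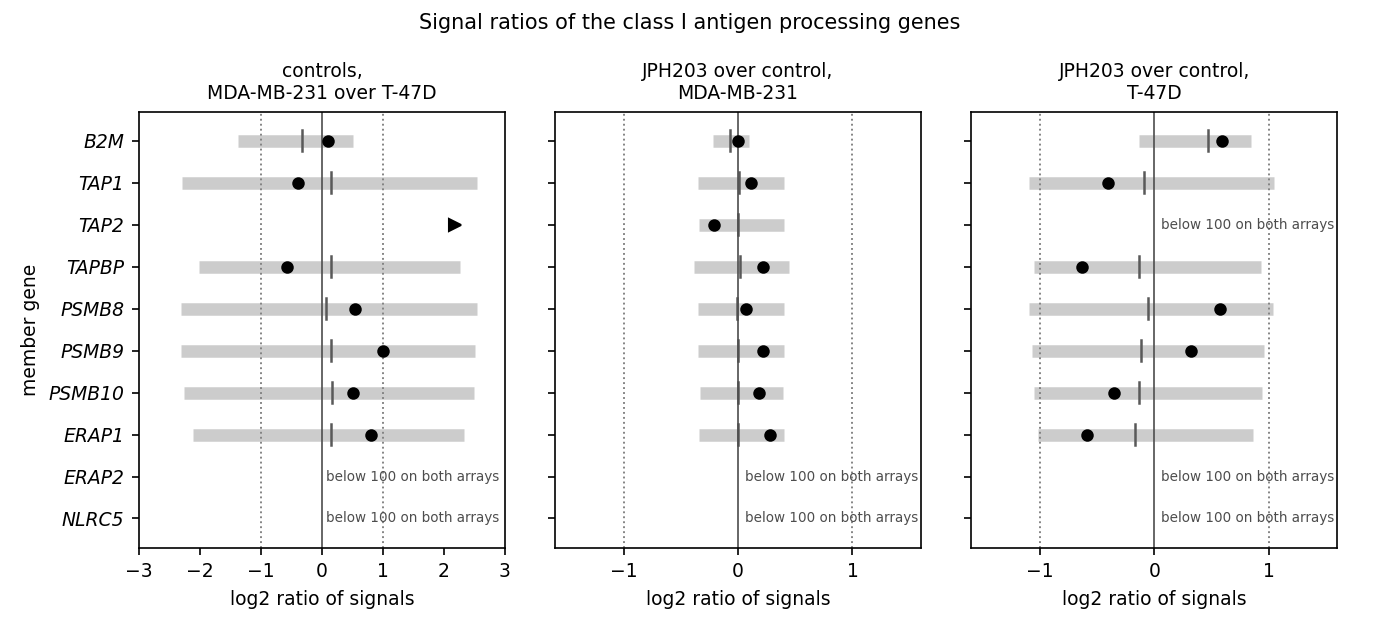
Log2 ratio of signals for each member (points) in the 3 comparisons, with a grey bar for the central 95% of genes of like signal, a tick for their median and dotted lines at 2-fold. The triangle marks the bound for TAP2, and the other points all lie inside their bars.

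In MDA-MB-231 cells all 8 measured members stayed within 2-fold of the control after JPH203, as did nearly all genes, with 0.103% of 6777 called in either direction. The ratio was above 1 for 7 of the 8, counting B2M, whose log2 ratio was only 0.0011, with a median log2 ratio of 0.15 against -0.0048 for all genes, of which 3500 of 7170 had a ratio above 1. The highest was ERAP1 with 1.21. TAPBP and PSMB9 followed with 1.16, PSMB10 with 1.14, TAP1 with 1.08 and PSMB8 with 1.05, and TAP2 had the only ratio below 1, 0.866. For genes of like signal to ERAP1 the central 95% of ratios ran from 0.790 to 1.32, and each member lay inside its own range.

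In T-47D cells none of the 7 measured members passed 2-fold either, where 4.64% of 6416 genes did. Their ratios were split. B2M with 1.51, PSMB8 with 1.49 and PSMB9 with 1.25 were above 1. TAPBP with 0.647, ERAP1 with 0.667, TAP1 with 0.755 and PSMB10 with 0.784 were below 1. The second TAP2 probe set gave 0.663. The members' median log2 ratio was -0.35, against -0.053 for all genes. It was 0.32 when each gene's probe sets were averaged, which left 5 members measured. TAP1 and PSMB9, whose starts face away from each other across 488 bases, stood on opposite sides of 1.

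Ratios in T-47D cells depended on brightness, which touches B2M in particular. Genes with signals between 200 and 400 had a median ratio of 0.920 and those of at least 4000 one of 1.37, whereas the same groups in MDA-MB-231 cells had 1.00 and 0.953. The 134 genes as bright as B2M had a median ratio of 1.38, with 95% between 0.914 and 1.80, so B2M stood at 1.09 times that median. PSMB8 stood at 1.55 times the median of its own 1343 genes of like signal, and PSMB9 at 1.35 times. TAPBP stood at 0.709 times, ERAP1 at 0.747, TAP1 at 0.804 and PSMB10 at 0.858. Each of these lay inside the 95% range of its genes of like signal, and each stood on the same side of that median as of 1. The part of the array's other differences in these ratios was not tested.

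**Figure D3:**
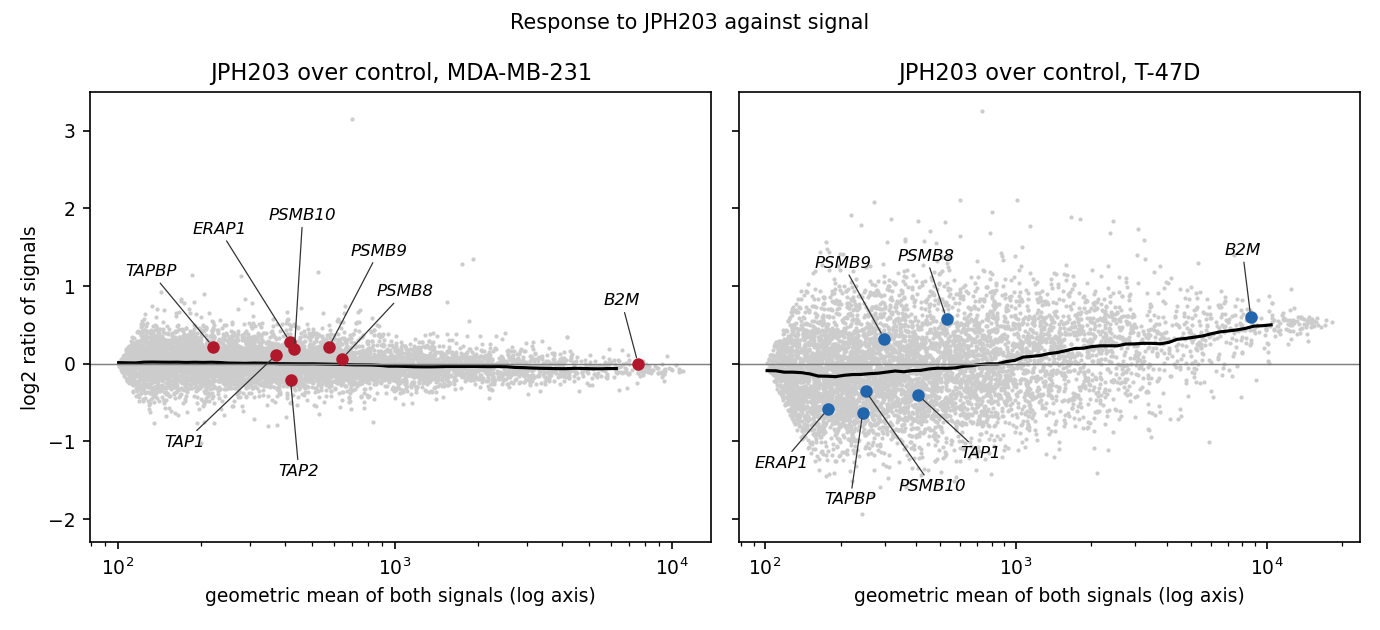
Log2 ratio of JPH203 over control against the geometric mean of both signals (log axis), for all genes at 100 or more on both arrays (grey), their running median (line) and the members (coloured). The line rises with signal in T-47D cells and stays near 0 in MDA-MB-231 cells, and B2M lies just above it at the bright end.

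Set side by side, TAP1, TAPBP, PSMB10 and ERAP1 had a ratio above 1 in MDA-MB-231 and below 1 in T-47D cells, and PSMB8 and PSMB9 one above 1 in both. B2M was counted with the latter, although its ratio in MDA-MB-231 cells was 1.00. Of the 5265 genes at or above 100 on all 4 arrays, 26.5% showed the first pattern and 20.9% the second, against 4 and 3 of the 7 members. The difference between the lines in each of these genes was not tested. For TAP1 and PSMB10 it rests on their only probe set. For TAPBP and ERAP1 it rests on the brightest, since their other probe sets were below 100 on every array. Those of TAPBP gave ratios of 0.896 and 1.35 for MDA-MB-231 and of 0.858 and 0.883 for T-47D. The next brightest of ERAP1 gave log2 ratios of 0.27 for MDA-MB-231 and 0.10 for T-47D. The one after it gave -0.34 and 0.15, and the rest stayed at or below 13.8.

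The standard proteasome subunits give the counterpart of the immunoproteasome. Of 6 measured genes for standard catalytic subunits, the assembly factor POMP and proteasome activators, none passed 2-fold with JPH203 in either line. All 6 had a ratio above 1 in T-47D cells (median log2 ratio 0.34) and 1 of 6 in MDA-MB-231 cells (median -0.14). PSMB7, the standard counterpart of PSMB10, had signals of 4408 and 4106 for the MDA-MB-231 line and of 5107 and 6734 for T-47D, ratios of 0.931 and 1.32. PSMB6, the counterpart of PSMB9, and PSMB5, that of PSMB8, were chosen for these pairs after their values were seen. PSMB6 had ratios of 0.968 and 1.22, and PSMB5 of 0.856 and 1.13. In MDA-MB-231 cells each immunosubunit had a ratio above 1 and its standard partner one below 1. Genes as bright as the partners also had median ratios below 1 there, 0.966 for PSMB6, 0.958 for PSMB7 and 0.976 for PSMB5. The ratio of PSMB6 was thus close to its like-signal median. In T-47D cells PSMB8 had the higher ratio of its pair, PSMB9 and PSMB6 had similar ratios, and PSMB10 had the lower. The standard subunits were far up the brightness trend there, with like-signal medians of 1.30 for PSMB7, 1.21 for PSMB6 and 1.17 for PSMB5. PSMB6 thus stood close to its median, whereas PSMB9 stood at 1.35 times its own. This pair was alike only before the brightness trend was taken into account. Between the controls, PSME3, a subunit of a nuclear proteasome activator, was 2.16-fold higher in MDA-MB-231 cells.

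**Figure D4:**
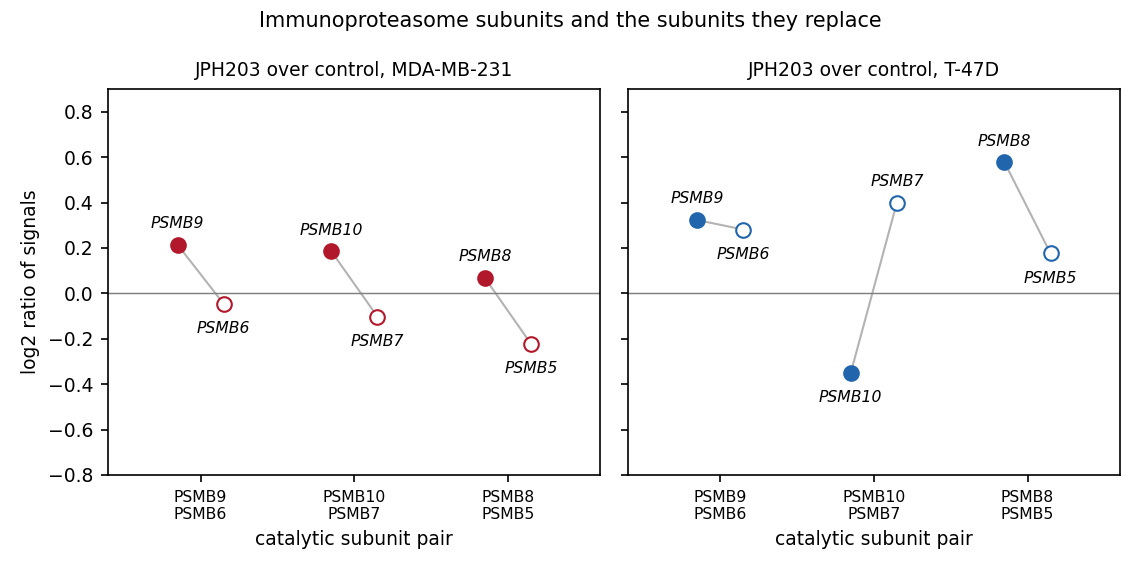
Log2 ratio of JPH203 over control for the 3 immunoproteasome subunits (filled) and the standard subunits they replace (open), joined by a line per pair. The filled point is the higher of every MDA-MB-231 pair, while among the T-47D pairs PSMB10 lies below its partner.

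The heavy chains and their chaperones complete the loading complex. Of the 5 heavy chain genes with a probe set, none passed 2-fold with JPH203. All 5 ratios were above 1 in MDA-MB-231 cells (median log2 ratio 0.20), and 1 of 5 was in T-47D cells (median -0.16). HLA-B, a classical heavy chain, had signals of 4396 in control and 3382 in JPH203-treated T-47D cells, a ratio of 0.769. HLA-C, another, had signals of 3952 and 3383, a ratio of 0.856. Genes as bright as these had a median ratio of 1.21, and B2M, the partner of both, had 1.51. In MDA-MB-231 cells HLA-B had a ratio of 1.10 and HLA-C of 1.15. The heavy chain probe sets are all of a type that may bind several related transcripts, so the signal of one HLA gene may include that of others. Between the controls, HLA-G, a heavy chain known for restricted expression, was 2.65-fold higher in MDA-MB-231 cells on such a probe set. Of the chaperones that fold heavy chains, all 3 measured had a ratio below 1 in T-47D cells, among them PDIA3 with 0.701 and CANX, calnexin, with 0.731, and the median log2 ratio was -0.45. In MDA-MB-231 cells all 3 had a ratio above 1, with a median of 0.070.

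Other peptidases that act on class I peptides in the cytosol had a median log2 ratio with JPH203 of 0.031 in the MDA-MB-231 line. It was -0.49 in T-47D cells, where all 3 that reached 100 on at least 1 array had a ratio below 1. Of all genes that did so there, 3937 of 7338 had a ratio below 1. NPEPPS, the puromycin-sensitive aminopeptidase, had a ratio of 1.21 and 0.710 respectively, and NRDC of 0.920 and 0.884. In T-47D cells, genes as bright as NPEPPS had a median ratio of 1.08, and those as bright as NRDC 0.934. In the MDA-MB-231 control BLMH, bleomycin hydrolase, was at least 2.45-fold higher.

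Interferons and NLRC5 act on the members through receptors, kinases and promoter factors. Of the interferon signalling genes at or above 100 on both arrays of a line, 6 for MDA-MB-231 and 3 for T-47D, none passed 2-fold with JPH203. Over those at or above 100 on at least 1 array the median log2 ratio was 0.030 and -0.45. IRF1, a factor that acts at interferon-stimulated response elements, had signals of 120.6 and 119.0 for the MDA-MB-231 line and of 42.1 and 59.2 for T-47D. It was thus measured only in the first line. JAK1, a kinase of both interferon receptors, had a ratio of 0.908 in MDA-MB-231 cells and, with signals of 911.5 and 543.4, of 0.596 in T-47D cells. IFNGR2, a chain of the interferon-gamma receptor, had ratios of 1.34 and 1.14. Between the controls IRF1 and IFNAR2, a receptor chain with signals of 108.8 against 27.3, reached 100 in the MDA-MB-231 line alone, and with the T-47D control set at 100 the differences were at least 1.21-fold and 1.09-fold, short of 2-fold. Of 6 measured promoter factors with which NLRC5 acts, NFYA was at least 3.54-fold higher in the control of the MDA-MB-231 line. NFYB and RFXANK were lower there, with ratios of 0.305 and 0.395. None passed 2-fold with JPH203.

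Class II genes, which present peptides from outside the cell, and class I-like genes were compared between the controls as neighbours of the pathway. Of the class II genes, HLA-DRA had signals of 603.3 in the MDA-MB-231 control and 16.1 in that of T-47D, and HLA-DPA1 of 678.5 and 13.1, or at least 6.03-fold and 6.79-fold higher. CD74, the invariant chain, had 140.3 and 48.1, at least 1.40-fold higher. HLA-DMA, a class II loading factor and the only gene of this list at or above 100 in both controls, was lower in MDA-MB-231 cells with a ratio of 0.226. Of the class I-like genes, MICA, a ligand of an activating receptor of natural killer cells, was higher in MDA-MB-231 control cells with 385.1 against 45.7, at least 3.85-fold. MR1, which presents vitamin metabolites, was lower by at least 2.64-fold with 34.6 against 264.3, as was HFE, a regulator of iron uptake, with 113.2 against 463.2. FCGRT, the neonatal Fc receptor chain, had 28.7 against 101.7, a bound of only 1.02-fold. Of the 6 genes in each list, those at or above 100 on both arrays of a line were 4 class II and 3 class I-like genes in MDA-MB-231 and 1 and 4 in T-47D cells, and none of these passed 2-fold with JPH203.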

How the data were processed

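The authors deposited linear signal intensity values of 54675 probe sets on 4 arrays, made with GCOS according to the submitters' processing notes, whose version is not given in the sources used here. Each array's trimmed mean was near 100, and no detection calls were used. The array annotation named 1 gene for 41097 probe sets, several for 1801 and none for 11777. Of the first, 41043 matched a RefSeq table by gene identifier. Of the deposited columns 0 belonged to another series.

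A gene's level was that of its brightest probe set by mean over the arrays. Ratios were called at 2-fold, given 100 or more on both arrays for JPH203 and on at least 1 for the controls. Where 1 control was below 100, the count took the ratio as measured, and a bound with that control set at 100 was given for the genes named. List medians covered genes at or above 100 on at least 1 array. No test of these comparisons was possible with 1 array per condition, and the number of arrays limits the precision. Genes of like signal were those within 0.5 log2 units.

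Named genes were all members and, of each list, up to 4 called genes or the 2 brightest, and others named for comparison (PSMB5, PSMB6, IRF1 with JPH203, TYK2, IRF9 and PTPRC) were chosen after their values were seen. The members and lists were chosen with earlier results of these data known. Alternatives were median centring, quantile normalization, a pseudocount of 16, other minimums, fold thresholds and probe sets. A further 2, the ratio over genes of like signal and the probe set with the highest lowest signal, were chosen after seeing the data. Calling was tested on simulated data. Python 3.11.15, numpy 2.4.6, pandas 2.3.3 and matplotlib 3.10.9 were used.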

Additional observations from a re-analysis of the deposited data

Results flagged for a closer look

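For 4 members the 2 lines stood on opposite sides of their controls after JPH203, above in MDA-MB-231 and below in T-47D cells, and this difference was not tested. The log2 ratio of the MDA-MB-231 line minus that of T-47D was 0.52 for TAP1, 0.85 for TAPBP, 0.54 for PSMB10 and 0.87 for ERAP1. The ERAP1 pattern turned over without the probe sets that may bind several transcripts, with log2 ratios of -0.34 for MDA-MB-231 and 0.15 for T-47D from signals below 100. The second TAPBP probe set, also below 100, stood below its control in both lines, whereas the dimmest stood on the same sides as the brightest. None of these genes passed 2-fold in either line, and 26.5% of the 5265 genes at or above 100 on all arrays stood on the same sides. All 4 lay below the signal of 800 at which the T-47D median ratio turned above 1. Log2 ratios were also taken over the median of genes of like signal, in MDA-MB-231 and then T-47D cells. They were 0.11 and -0.31 for TAP1, 0.20 and -0.50 for TAPBP, 0.18 and -0.22 for PSMB10, and 0.28 and -0.42 for ERAP1. What remained of these differences was not tested.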

How the results depend on the processing

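For the members 4 counts were recomputed under 13 alternative settings, 2 of them chosen after seeing the data, and 3 medians under the 10 that apply to them. Of these values 72 stayed within 1.5 times the main count or 1.5-fold of the main median and 10 moved further, 1 median changing sign. The number of members higher in MDA-MB-231 control cells by 2-fold or more was 1 in place of 2 with median centring, quantile normalization, a pseudocount of 16, a 3-fold threshold or the ratio over genes of like signal (TAP2 alone), and 1 with the mean of the probe sets or the probe set with the highest lowest signal (PSMB9 alone). It was 3 with no minimum signal (with NLRC5) and 3 at 1.5-fold (with ERAP1). With JPH203 in T-47D cells, 1 member was called with no minimum signal (TAP2, from signals below 100) and 3 at 1.5-fold (B2M, ERAP1 and TAPBP), in place of 0. The members' median log2 ratio there was 0.32 with the mean of the probe sets, which left 5 measured members, in place of -0.35. That setting averages in dim probe sets, so TAPBP and ERAP1 fell below the minimum, where TAP2 already stood in T-47D cells by its brightest probe set. Of values for single genes, 283 stayed within 1.5-fold and 11 moved further. In all 6 values of 3 genes (B2M, TAP2 and ERAP1) changed sign, each with the mean of the probe sets or without those that may bind several transcripts, settings which bring in dim probe sets. B2M in T-47D cells had a log2 ratio of 0.60, but of 0.13 after quantile normalization and 0.13 relative to genes of like signal. Without probe sets of the type that may bind several transcripts, TAP1 and PSMB8 had none. Each comparison set 1 array against 1 other, so no paired analysis within a comparison was possible and no array could be left out.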
